A study of Mus musculus with 22 samples.

Results

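Janus kinases (JAKs) and signal transducers and activators of transcription (STATs) are the core of a short signalling pathway. A cytokine or growth factor brings its receptor chains together, the JAKs bound to those chains phosphorylate them, and a STAT that docks there is phosphorylated, pairs with another STAT and enters the nucleus to activate genes. In fibroblasts the pathway is known for responses to interferons and to cytokines of the interleukin-6 family. The members described here are 8 genes of this pathway among the 10516 genes measured: the kinases Jak1, Jak2 and Tyk2, and the transcription factors Stat2, Stat3, Stat5a, Stat5b and Stat6. They were taken by name, matched to their Ensembl identifiers, and all 8 were present. Jak2 was included partly because the study singled it out from these same libraries, so its values are not independent evidence of a response.

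The cells were NIH3T3, an established line of mouse embryonic fibroblasts, transduced with a lentivirus that expressed an shRNA and selected with puromycin. Denr knockdown cells carried Denr shRNA1 (3 lysates) or Denr shRNA2 (3 lysates), and control cells carried scramble shRNA (3 lysates) or Gfp shRNA (2 lysates), 11 lysates in all. Cycloheximide, which halts elongating ribosomes, was given to every culture just before harvest, and each lysate came from its own dish. Each lysate was sequenced as ribosome footprints (RPF-seq) and as RNA (RNA-seq), together 22 libraries. Whether the dishes of one shRNA came from separate transductions was not given in the sources used here, so that p-values measure the spread between these dishes. DENR is a factor that helps ribosomes to start again on a coding sequence (CDS) after they have translated an upstream open reading frame (uORF) in the 5′ UTR, and the knockdown asked which transcripts need it.

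Denr RNA lay between 15.5 and 44.0 RPKM in the 6 knockdown lysates and between 164.7 and 190.1 RPKM in the 5 controls, so that the groups did not overlap. RPKM is the number of reads per kilobase of a region, scaled to the normalised size of the library. RPF-seq libraries held between 10927591 and 21650161 reads on the CDS and 5′ UTR of the measured genes, and RNA-seq libraries between 8514260 and 20110164. Of 14 fibroblast markers 13 were measured, and their summed RNA lay between 7908 and 9864 RPKM after knockdown and between 7585 and 9224 RPKM in controls, Lum being the marker not measured. Of the other cell types' markers, 2 of 7 epithelial genes (Cdh1 and Krt14) summed to 12.3 to 16.7 RPKM after knockdown and 10.7 to 19.9 RPKM in controls, and Lyz2, the 1 of 7 leukocyte genes measured, lay between 33.3 and 52.3 and between 26.5 and 45.3 RPKM. The 1 of 5 endothelial (Cdh5) and 1 of 5 muscle (Des) genes measured had at most 1.55 RPKM in any library, and Epcam and Ptprc were not among the measured genes. In such bulk lysates fewer cells of a type and less RNA per cell cannot be told apart. The RNA-seq library of Denr shRNA1 replicate 1 stood apart: its R2 with another library of the same shRNA was as low as 0.956, while the lowest between RNA-seq libraries of any other shRNA was 0.976. Compared with the other Denr shRNA1 libraries, genes with a CDS of up to 885.5 nt had a median log2 RNA value 0.23 higher there, and genes with a CDS of at least 2292 nt one 0.064 lower. The same pattern was seen in replicate 1 of every other shRNA against its own line, with 0.17 higher and 0.068 lower for Gfp shRNA, 0.078 higher and 0.080 lower for Denr shRNA2, and 0.069 higher and 0.034 lower for scramble shRNA. All 8 members have a CDS of 2310 to 3621 nt, so results were also computed without the Denr shRNA1 replicate 1 lysate, without replicate 1 of both Denr shRNA1 and Gfp shRNA (the largest differences for short genes), and without replicate 1 of Denr shRNA1, Denr shRNA2 and Gfp shRNA (the largest for long genes).

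The 5′ UTR sequences bear on the comparison, because DENR acts after uORFs. On the annotated transcript whose CDS and 5′ UTR lengths equal those behind the RPKM values, Jak2 (transcript Jak2-202, chr19:29251828-29313080, plus strand, GRCm38) has a 5′ UTR of 399 nt with 3 AUG codons. Its first 2 AUGs are each followed directly by a stop codon, as shown by these 21-base windows with the start codon in capitals.
Jak2 AUG 1, exon 1, chr19:29251934-29251954: cgccgctgcgggATGtgagtg
Jak2 AUG 2, exon 2, chr19:29252452-29252472: gacgggaacaagATGtgaact
The last AUG opens a uORF of 9 nt that ends 12 bases before the CDS, shown here from its start codon to the second codon of the CDS, with the uORF's start and stop and the CDS start in capitals.
Jak2 uORF and CDS start, exon 3, chr19:29262187-29262213: ATGttcTGAaaaaagctctagATGgga

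The other genes lie (GRCm38) at chr4:101152367-101265282 on the minus strand (Jak1), chr9:21104068-21131243 on the minus strand (Tyk2), chr10:128270559-128292849 on the plus strand (Stat2) and chr10:127642986-127660957 on the plus strand (Stat6). A cluster on chromosome 11 holds Stat5b (chr11:100780731-100850724, minus strand), Stat5a (chr11:100859351-100885169, plus strand) and Stat3 (chr11:100885098-100939540, minus strand).

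The other members differed in their upstream AUGs. Counting uORFs of at least 9 nt on the matching transcript, Jak1 had 1 (18 nt), Stat3 had 2 (195 and 57 nt) and Stat6 had 2 (27 and 24 nt), while Stat2 and Stat5b had 0. No Stat5a transcript had both lengths. For Tyk2 only the CDS length could be recovered, its 5′ UTR values being 0 in every library. On the transcript with the longest CDS Stat5a had 0 and Tyk2 had 2, and that Tyk2 transcript has the recovered CDS length of 3621 nt. The choice of transcript decided the count for Stat5b, which had 7 uORFs on the transcript with the longest CDS, and for Stat5a, which had 4 on the transcript with the longest 5′ UTR. On the longest-CDS transcript, 49.9% of 10247 genes had a uORF of that length, so that having one is common. The start codons of Jak1 and Stat6 are shown for comparison with Jak2, since these genes had the next highest 5′ UTR footprint signal relative to the CDS.
Jak1 uORF, across an exon junction, chromosome 4: gatcagctctgaATGggcttt
Stat6 uORF 1, exon 1, chr10:127643110-127643130: gcctgtgtgcatATGtgtgtg
Stat6 uORF 2, exon 1, chr10:127643182-127643202: acctacagacccATGgggctt
All uORFs were predicted from sequence, with AUG starts only, and their translation was not measured here.

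In control cells the 3 kinases spanned a wide range of RNA. Jak1, the kinase shared by interferon and interleukin-6 family receptors, had 53.8 ± 1.73 RPKM (SD, n = 5), at the 68.2th percentile of all genes. Jak2, the kinase of growth hormone and erythropoietin receptors and a partner in interferon-γ signalling, had 36.4 ± 6.21 RPKM. Tyk2, a partner of Jak1 at interferon receptors, had 6.44 ± 0.452 RPKM. Among the STATs, Stat6, the factor of interleukin-4 signalling, had the highest RNA level (63.7 ± 2.67 RPKM) and Stat2, which acts in the interferon response, the lowest (3.78 ± 0.676 RPKM). The RNA order was Stat6, Jak1, Jak2, Stat5b, Stat3, Tyk2, Stat5a and Stat2. Of the 7 neighbouring pairs in that order, Stat5b and Stat3 overlapped in their control libraries, as did Tyk2 and Stat5a, and the other 5 pairs did not.

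The order by footprints was different, above all for Jak2. Jak2 CDS footprints in controls were 5.52 ± 0.724 RPKM, at the 19.6th percentile of all genes, although its RNA stood at the 57.4th. Its translation efficiency (TE), the ratio of CDS RPKM in RPF-seq to that in RNA-seq of the same lysate, was 0.156 ± 0.0392 in controls. That was the lowest of the 8 members and stood at the 1.49th percentile of all genes. Tyk2 followed with a TE of 0.296 ± 0.0461, at the 6.69th percentile. The other members lay between the 31.8th percentile for Stat5b and the 77.3rd for Stat5a, and Stat5a, Stat3, Jak1 and Stat2 overlapped with their neighbours in that order.

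**Figure D1:**
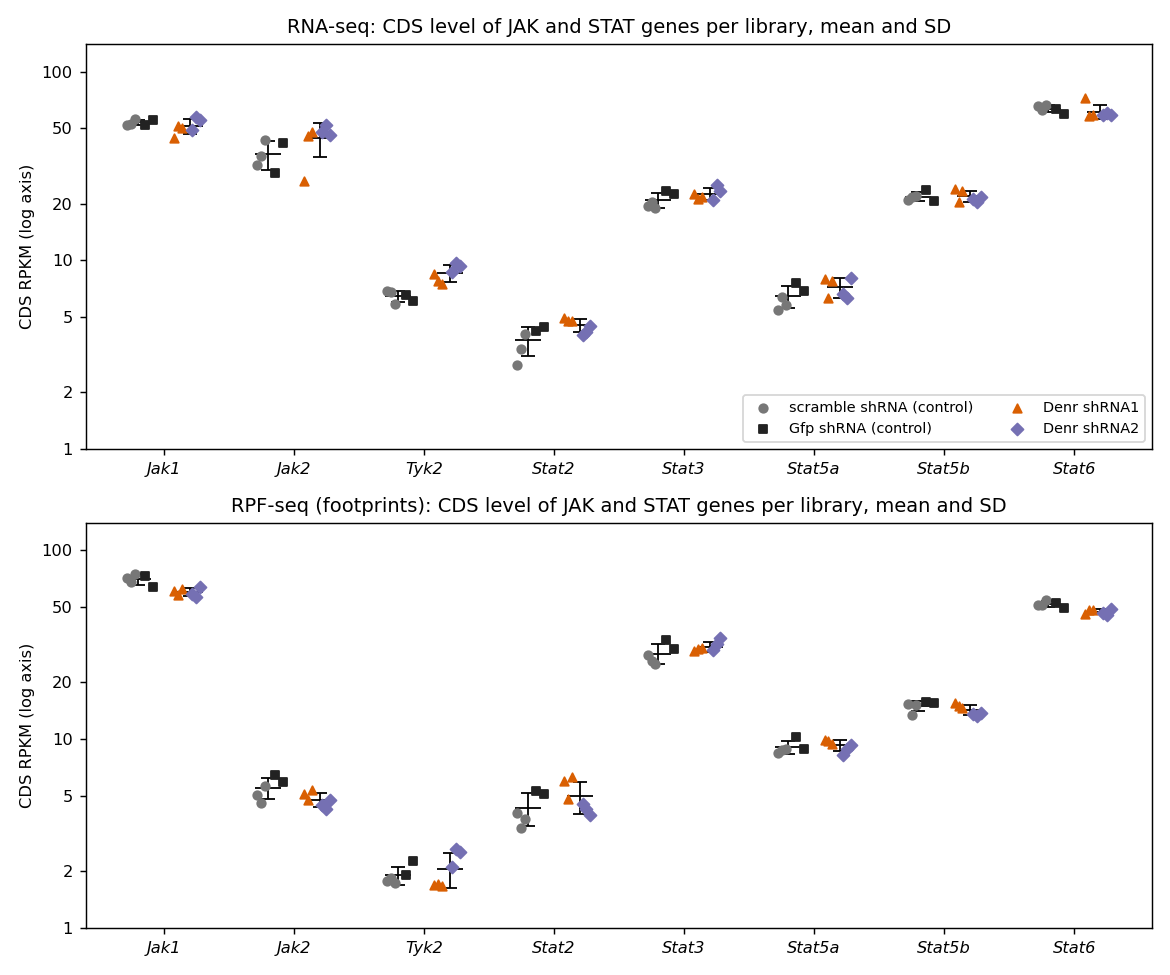
CDS RPKM of the 8 members in each RNA-seq library (top) and RPF-seq library (bottom), on log axes, with the mean and SD of the 5 control and 6 knockdown lysates as bars. Tyk2 RNA is higher in all 6 knockdown lysates than in any control, and Jak2 RNA of Denr shRNA1 replicate 1 (26.3 RPKM) lies below the other knockdown lysates.

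Tyk2 was the member whose RNA rose with Denr knockdown. Its RNA-seq values were 8.46, 7.76 and 7.499 RPKM with Denr shRNA1, 8.67, 9.68 and 9.34 RPKM with Denr shRNA2, 6.58 and 6.06 RPKM with Gfp shRNA and 6.92, 6.77 and 5.88 RPKM with scramble shRNA. All 6 knockdown libraries lay above all 5 controls. The log2 change was 0.40 (standard error 0.090, limma adjusted p = 0.0411, adjusted over all genes), and Tyk2 was the 1 of 8 members past the FDR threshold of 0.1, where 3.55% of all 10516 genes passed it, 2.68% passed upward and 2.63% had knockdown lysates entirely above controls. The call was kept in each of the 11 fits with a lysate left out, with adjusted p between 0.0392 and 0.0952. Without replicate 1 of Denr shRNA1, Denr shRNA2 and Gfp shRNA the change was 0.41 (limma adjusted p = 0.0879). With Denr shRNA1 alone against all controls the change was 0.29 (limma adjusted p = 0.268).

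Footprints on the Tyk2 CDS did not pass between knockdown and control. They were 1.69, 1.71 and 1.68 RPKM with Denr shRNA1 and 2.10, 2.62 and 2.53 RPKM with Denr shRNA2, against 1.73 to 2.27 RPKM in the 5 controls. The shRNA1 lysates lay below every control, and 2 of the 3 shRNA2 lysates lay above every control. The change over both shRNAs was 0.092 (standard error 0.14, limma adjusted p = 0.731). Between the shRNAs, however, Tyk2 footprints were higher with shRNA2 by 0.49 on the log2 scale (standard error 0.13, limma adjusted p = 0.0517), a difference that 5.68% of all genes showed in this direction and 9.69% in either. It no longer passed when Denr shRNA1 replicate 1, 2 or 3 or Denr shRNA2 replicate 2 or 3 was left out, with changes from 0.43 to 0.49 and adjusted p from 0.123 to 0.189. The TE of Tyk2 changed by -0.31 with knockdown (standard error 0.12, limma adjusted p = 0.601), below all controls in 4 of 6 lysates. The 72 to 131 footprints per library on its CDS limit what could be resolved.

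Jak1 was the member whose footprints fell. RPF-seq gave 61.1, 58.1 and 62.1 RPKM with Denr shRNA1, 58.5, 56.2 and 64.1 RPKM with Denr shRNA2, 73.4 and 63.7 RPKM with Gfp shRNA and 71.6, 67.8 and 74.7 RPKM with scramble shRNA. In 5 of 6 knockdown lysates the value lay below all controls, and the highest knockdown value overlapped with the lowest control. The log2 change was -0.23 (standard error 0.057, 95% confidence interval -0.35 to -0.10, limma adjusted p = 0.0406), a fall of 14.5% that was read from at least 1986 footprints in every library. Jak1 was again 1 of 8 members, where 10.0% of all genes passed the threshold and 4.55% did so downward. It passed in each of the 11 fits with a lysate left out (adjusted p from 0.0167 to 0.0990). Without replicate 1 of Denr shRNA1, Denr shRNA2 and Gfp shRNA the change was -0.21 and did not pass (limma adjusted p = 0.172). With 1 shRNA alone the change was of like size without passing, at -0.22 for shRNA1 (limma adjusted p = 0.129) and -0.24 for shRNA2 (limma adjusted p = 0.109).

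Jak1 RNA ranged from 44.5 to 57.3 RPKM after knockdown and from 52.3 to 56.1 RPKM in controls, the lowest value being that of Denr shRNA1 replicate 1. Its change of -0.073 did not pass (standard error 0.072, limma adjusted p = 0.662). The Jak1 TE change was -0.15 (standard error 0.088, 95% confidence interval -0.34 to 0.037, limma adjusted p = 0.869). Neither RNA nor TE of Jak1 thus passed beside its footprints.

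Jak2 RNA was higher in most knockdown lysates. It was 26.3, 45.8 and 48.1 RPKM with Denr shRNA1, 47.8, 52.4 and 46.1 RPKM with Denr shRNA2, 28.9 and 41.8 RPKM with Gfp shRNA and 32.2, 35.8 and 43.5 RPKM with scramble shRNA. The 5 other knockdown lysates lay above all controls, while Denr shRNA1 replicate 1 lay below all of them. With all lysates the change was 0.27 (standard error 0.16, limma adjusted p = 0.440). Without Denr shRNA1 replicate 1 it was 0.41 and passed the threshold (limma adjusted p = 0.0592), as did 4.9% of all genes in that fit. Without replicate 1 of Denr shRNA1 and Gfp shRNA it was 0.33 and passed (limma adjusted p = 0.0578), as did 975 of 10516 genes. Without replicate 1 of Denr shRNA1, Denr shRNA2 and Gfp shRNA it was 0.34 and did not pass (limma adjusted p = 0.102). Jak2 RNA was lowest in replicate 1 of Denr shRNA1 and of Gfp shRNA, and the part of the length pattern in the Jak2 values was not tested.

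Jak2 footprints were low throughout and pointed the other way. They were 5.10, 4.74 and 5.36 RPKM with Denr shRNA1, 4.47, 4.27 and 4.74 RPKM with Denr shRNA2, 6.42 and 5.91 RPKM with Gfp shRNA and 5.07, 4.56 and 5.63 RPKM with scramble shRNA, from 148 to 415 reads. The groups overlapped, with 2 of the 6 knockdown values below all controls. The change was -0.20 (standard error 0.098, 95% confidence interval -0.41 to 0.013, limma adjusted p = 0.238).

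The log2 TE of Jak2 was -2.35, -3.24 and -3.14 with Denr shRNA1, -3.39, -3.59 and -3.26 with Denr shRNA2, -2.15 and -2.80 with Gfp shRNA and -2.64, -2.94 and -2.93 with scramble shRNA. Again 5 of 6 knockdown lysates lay below all controls, and Denr shRNA1 replicate 1 lay among the controls. The change was the largest of the 8 members at -0.47 but had a wide error (standard error 0.21, 95% confidence interval -0.92 to -0.011), and did not pass (limma adjusted p = 0.738). Leaving out Denr shRNA1 replicate 1 gave -0.63 (limma adjusted p = 0.153, the lowest of the 11 fits with a lysate left out), leaving out replicate 1 of both Denr shRNA1 and Gfp shRNA gave -0.49 (limma adjusted p = 0.152), and leaving out that of Denr shRNA2 as well gave -0.48 (limma adjusted p = 0.259).

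**Figure D2:**
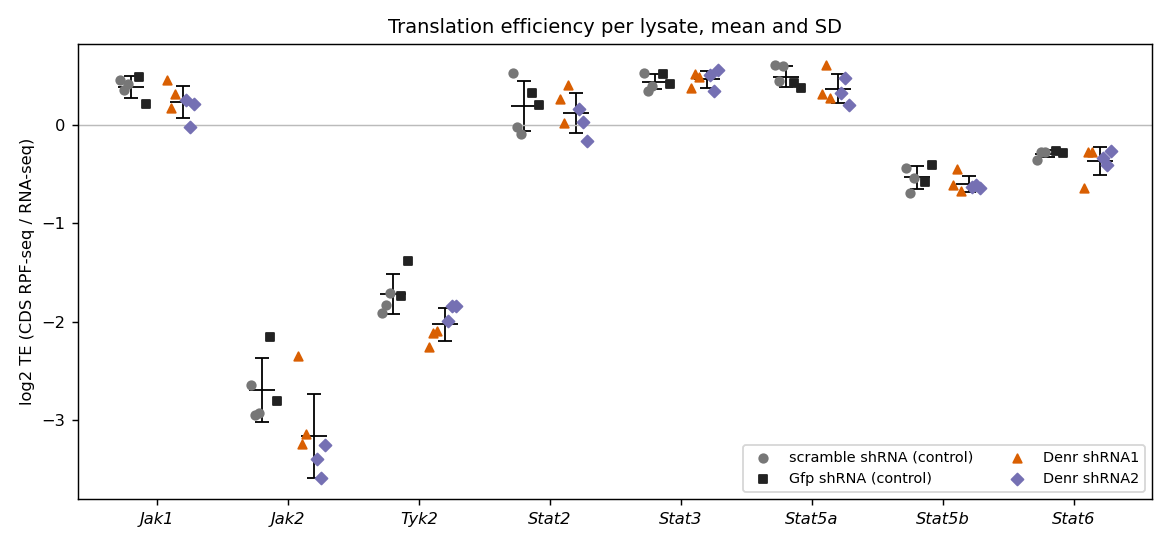
Log2 TE of the 8 members in each of the 11 lysates, with the mean and SD of the 5 control and 6 knockdown lysates as bars. Jak2 and Tyk2 lie far below the other members in every lysate, and 5 of 6 Jak2 knockdown values lie below its controls.

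The 5 genes whose log2 TE was most like that of Jak2 over the 11 lysates, among 9541 genes with a mean of at least 50 CDS reads in each assay, were Ralgapb (Pearson r = 0.967), Cdc42bpa (0.965), Ankib1 (0.961), Camsap2 (0.960) and Chd9 (0.951). All points of these correlations share their libraries. Their CDS lengths of 3273 to 8655 nt, and that of Jak2 (3396 nt), all stand at the 87.6th percentile or higher of CDS lengths, and the part of length in the likeness was not tested.

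Stat6 had footprints that did not overlap between the groups without passing the test. They lay between 45.4 and 48.9 RPKM, with a median of 47.3, in the 6 knockdown lysates and were 52.9, 49.2, 51.5, 51.5 and 54.6 RPKM in the controls. The change was -0.13 (standard error 0.049, limma adjusted p = 0.121), and 1.97% of all genes had knockdown values entirely below controls. With scramble shRNA alone as control it was -0.15 and passed (limma adjusted p = 0.0793), as it did without Gfp shRNA replicate 2 (-0.15, limma adjusted p = 0.0673). In these fits 2651 and 1946 of 10516 genes passed, against 1053 with all lysates. Stat6 footprints also passed with replicate number as a block in the fit (values given at the end), where 1940 of 10516 genes did. Stat6 RNA was 72.4 RPKM in Denr shRNA1 replicate 1, against 58.3 to 60.1 RPKM in the other 5 knockdown lysates and 59.9 to 66.4 RPKM in controls, with a change of -0.060 (limma adjusted p = 0.722).

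Stat2 differed between the 2 Denr shRNAs. Its CDS footprints were 5.99, 4.84 and 6.33 RPKM with Denr shRNA1 and 4.52, 4.24 and 3.98 RPKM with Denr shRNA2. In controls they were 5.29 and 5.14 RPKM with Gfp shRNA and 4.07, 3.36 and 3.79 RPKM with scramble shRNA. The shRNA2 lysates were lower by 0.41 on the log2 scale (change -0.41, standard error 0.12, limma adjusted p = 0.0662), as 4.01% of all genes were. The call was lost when Denr shRNA1 replicate 1 or 3, or any of the 3 Denr shRNA2 lysates, was left out (changes from -0.46 to -0.34, adjusted p from 0.101 to 0.215). Over both shRNAs against control the change was 0.20 for Stat2 footprints (limma adjusted p = 0.432) and 0.27 for its RNA (standard error 0.12, limma adjusted p = 0.302), with 4 of 6 RNA values above all controls.

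The remaining STATs showed no difference past the threshold. Stat3, the main factor of interleukin-6 family signalling, had RNA between 20.8 and 25.2 RPKM after knockdown and between 19.0 and 23.3 RPKM in controls, a change of 0.10 (95% confidence interval -0.068 to 0.27, limma adjusted p = 0.567). Its footprints changed by 0.13 (limma adjusted p = 0.331). With scramble shRNA alone as control they changed by 0.24 and passed (limma adjusted p = 0.0418), as did those of Stat2 with 0.39 (limma adjusted p = 0.0993), both Gfp lysates having higher Stat2 and Stat3 footprints than any scramble lysate. In that fit 2651 of 10516 genes passed in footprints, against 1053 with all lysates. Stat5b, a mediator of growth hormone signalling, was the closest to no change, with RNA at 21.8 ± 1.45 RPKM (n = 6) after knockdown and 21.8 ± 1.16 RPKM (n = 5) in controls and a 95% confidence interval of -0.15 to 0.15 on the log2 scale. Stat5a, its neighbour on chromosome 11, had RNA of 7.19 ± 0.839 RPKM after knockdown and 6.44 ± 0.842 RPKM in controls (change 0.16, limma adjusted p = 0.507). The coding sequences of Stat5a and Stat5b were 90.8% identical, and 35.9% of the 30-base windows of Stat5a also occurred in Stat5b, so how reads were split between these 2 genes is uncertain. No other pair of kinases or of STATs shared such a window. Stat5a and Stat3 overlap by 72 bases on opposite strands.

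Over the 8 members together, RNA was higher after knockdown in 6 (57.1% of all genes), footprints in 4 (51.9%) and TE in 1 (45.3%), all by their means and without a test. TE passed the threshold in none of them (limma), where 0.475% of all genes did. The median change of the members was -0.099 in TE, 0.13 in RNA and -0.016 in CDS footprints, against -0.012, 0.027 and 0.0072 over all genes. Between the 2 Denr shRNAs no member passed in RNA, where 2.06% of all genes did, or in TE. For TE, 0 of 10516 genes did so in limma, with 392 at an unadjusted p under 0.05.

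**Figure D3:**
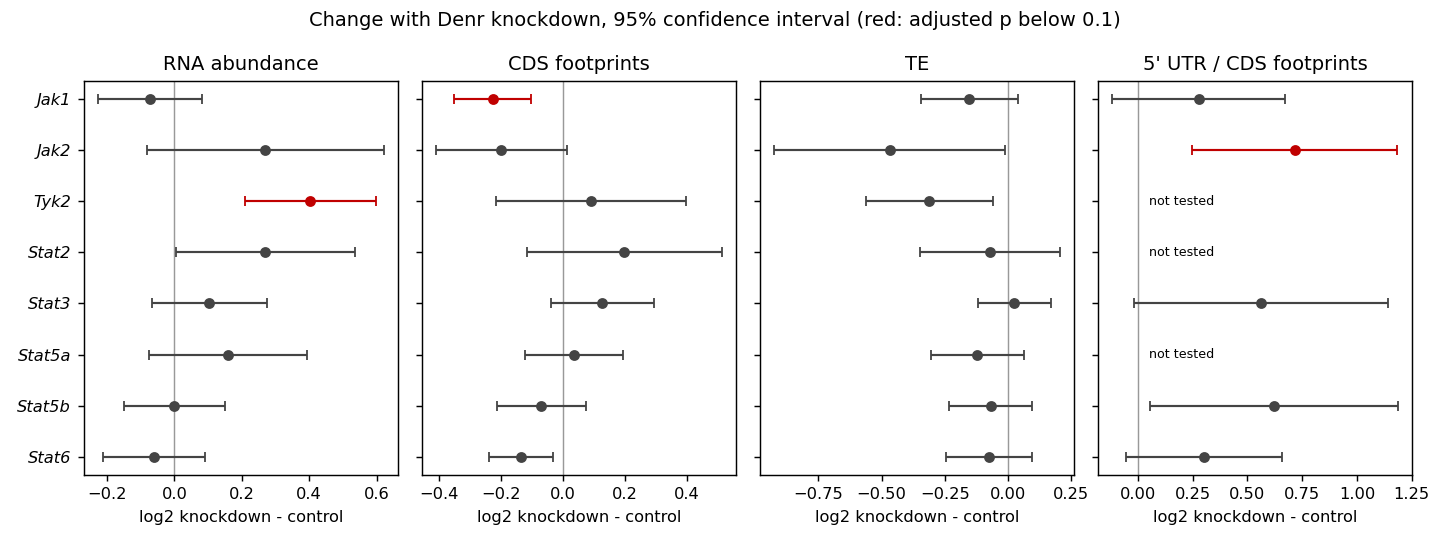
Log2 change between 6 knockdown and 5 control lysates with its 95% confidence interval from limma, for RNA abundance, CDS footprints, TE and the ratio of 5′ UTR to CDS footprints of each member. Red marks the 3 values past the FDR threshold of 0.1, which are Tyk2 RNA, Jak1 footprints and the Jak2 ratio, and each panel has its own scale.

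Footprints on the 5′ UTR relative to the CDS (relative 5′ UTR translation) could be compared in 5 of the 8 members, those whose 5′ UTR held 20 or more reads in no fewer than 9 of 11 RPF-seq libraries. Stat2 had 9 to 24 such reads and Stat5a 6 to 31, and the 5′ UTR of Tyk2 was listed at 0 in all 22 libraries, so these 3 were left out. In control cells Jak2 had the highest mean log2 ratio of the 5, at 0.15 ± 0.49 (SD, n = 5) and the 75.5th percentile of the 5176 genes with coverage. Stat6 followed with 0.089 ± 0.28, Jak1 with -0.42 ± 0.37, Stat5b with -1.13 ± 0.75 and Stat3 with -1.98 ± 0.62, and every neighbouring pair in this order overlapped.

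Relative 5′ UTR translation of Jak2 rose with Denr knockdown. The log2 ratio was 0.84, 0.96 and 0.73 with Denr shRNA1, 0.28, 1.22 and 1.19 with Denr shRNA2, 0.17 and 0.43 with Gfp shRNA and -0.50, 0.77 and -0.12 with scramble shRNA. In 4 of 6 knockdown lysates it lay above all controls. The change was 0.72 (standard error 0.22, 95% confidence interval 0.25 to 1.18, limma adjusted p = 0.0695), where 18.0% of the 5176 genes passed, 17.9% upward, and the median change was 0.33. The values rest on 16 to 62 footprints per library on the Jak2 5′ UTR, the part of the transcript that holds the 3 AUGs shown above. The call was lost when Denr shRNA1 replicate 2 or 3, Denr shRNA2 replicate 2, Gfp shRNA replicate 1, or scramble shRNA replicate 1 or 3 was left out, with changes from 0.55 to 0.74 and adjusted p of at most 0.159. Nor did it pass without replicate 1 of both Denr shRNA1 and Gfp shRNA (0.73, limma adjusted p = 0.174) or without that of Denr shRNA2 as well (0.88, limma adjusted p = 0.148).

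How the Jak2 5′ UTR was set against other signals mattered. Its 5′ UTR footprints were 8.98 ± 1.89 RPKM (n = 6) after knockdown and 6.37 ± 1.94 RPKM (n = 5) in controls, and alone changed by 0.52 (limma adjusted p = 0.125). In RNA-seq the 5′ UTR-to-CDS ratio of Jak2 changed by 0.18 (standard error 0.17, limma adjusted p = 0.960). Divided by the 5′ UTR RNA, the change of the 5′ UTR footprints was 0.067 (limma adjusted p = 0.906).

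The other 4 members with coverage also had higher mean ratios after knockdown, as 93.5% of all genes with coverage did, so the shared direction does not set the members apart. The change was 0.62 for Stat5b (standard error 0.27, limma adjusted p = 0.127), 0.56 for Stat3 (0.28, limma adjusted p = 0.160), 0.30 for Stat6 (0.17, limma adjusted p = 0.202) and 0.28 for Jak1 (0.19, limma adjusted p = 0.274). Stat5b passed without Gfp shRNA replicate 2 (0.85, limma adjusted p = 0.0390), with scramble shRNA alone as control (0.84, limma adjusted p = 0.0923) and with voom on recovered reads (0.66, limma adjusted p = 0.0926). Stat3 passed without Gfp shRNA replicate 2 (0.69, limma adjusted p = 0.0926). Of the 5176 genes, 1774 passed without Gfp shRNA replicate 2, 512 with scramble shRNA alone and 1172 with voom. With replicate number as a block in the fit, Stat5b, Stat3 and Stat6 passed (values given at the end). In that fit 2419 of the 5176 genes passed, against 931 without the block. In RNA-seq the 5′ UTR-to-CDS ratio of the 5 members changed by -0.059 to 0.28, and 0 of 5176 genes passed in limma (0.0%), with 221 at an unadjusted p under 0.05 and 0 passing with voom.

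**Figure D4:**
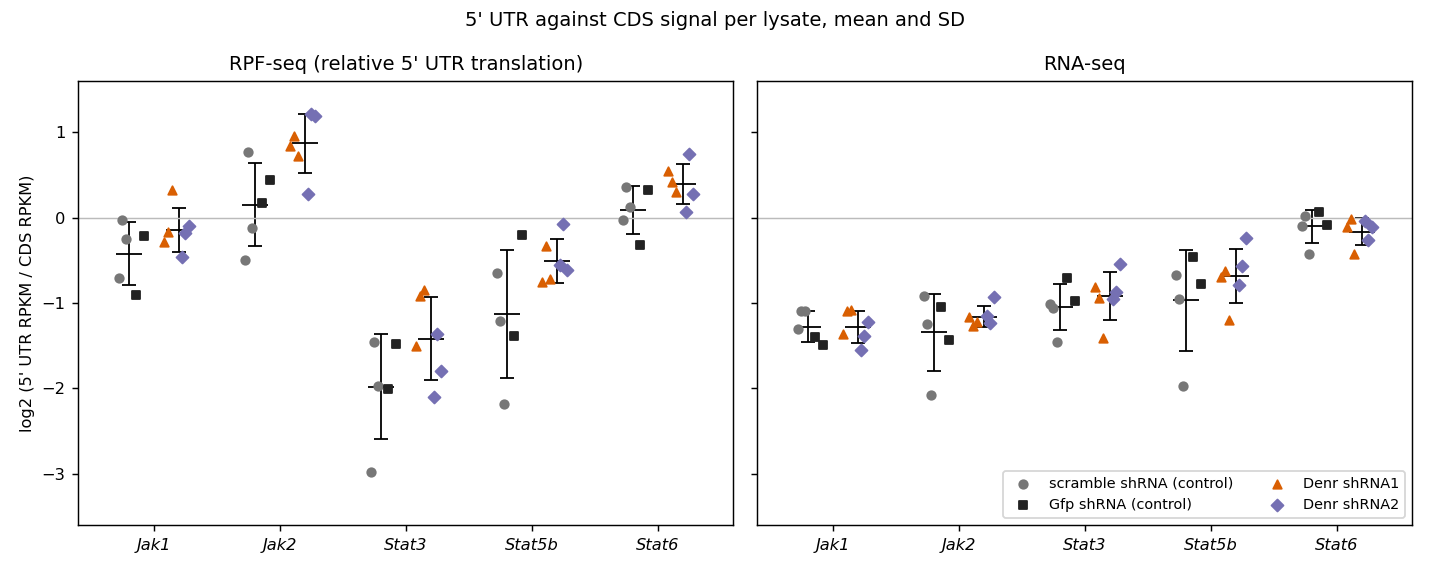
Log2 ratio of 5′ UTR RPKM to CDS RPKM of the 5 members with coverage, in each RPF-seq library (left) and RNA-seq library (right), with the mean and SD of control and knockdown lysates as bars. The knockdown means are higher for all 5 genes in RPF-seq and for 3 of them in RNA-seq. In both assays the groups overlap for each gene.

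The rest of the pathway was described from lists of ligands, receptors, inhibitors, adaptors, STAT target genes, interferon-stimulated genes and further JAK and STAT genes, 139 genes of which 91 were measured. Of the upstream genes, 4 of 16 ligands were measured and none passed in RNA, footprints, TE or relative 5′ UTR translation (limma). Among them Clcf1 had 80.8 ± 12.3 RPKM of RNA in controls, while interleukin-6 itself was not among the measured genes.

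Of 31 receptor genes, 16 were measured. Ifnar1, the interferon receptor chain that binds Tyk2, had RNA of 42.4 ± 1.64 RPKM after knockdown and 31.9 ± 1.92 RPKM in controls. Its RNA rose by 0.41 (limma adjusted p = 0.00677) and its TE fell by 0.39 (limma adjusted p = 0.0994), and its footprints had a change of 0.015. The TE call was lost without Denr shRNA1 replicate 1. Il6st, the shared signalling chain of interleukin-6 family receptors and the receptor gene with the most RNA in controls, had footprints of 145.7 ± 5.17 RPKM after knockdown and 165.6 ± 7.86 RPKM in controls (change -0.18, limma adjusted p = 0.04998), with no overlap. Knockdown footprints lay entirely below controls in 1.97% of all genes. Footprints of Lepr, the leptin receptor, fell by 0.96 at a very low level (0.161 against 0.393 RPKM, limma adjusted p = 0.0518), and those of Il11ra1 rose by 0.37 (limma adjusted p = 0.0978), a call lost without Denr shRNA1 replicate 1. In footprints 2 of the 16 receptors passed downward and 1 upward, where 10.0% of all genes passed. In RNA 1 of 16 passed, where 3.55% of all genes did, and in TE 1 of 16, where 0.475% did. The median change of the 16 receptors was -0.056 in RNA, 0.0016 in footprints and 0.019 in TE.

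Of 23 inhibitors, 21 were measured, and 3 changed in footprints, where 10.0% of all genes did. Socs6, of the family of suppressors of cytokine signalling, fell by 0.53 (limma adjusted p = 0.00474), from 18.2 ± 1.89 RPKM in controls to 12.5 ± 0.953 RPKM, without overlap (as in 1.97% of all genes). Socs3, the feedback inhibitor of Il6st signalling, fell by 0.38 (limma adjusted p = 0.0263), from 52.3 ± 3.55 to 40.3 ± 5.44 RPKM. Pdlim2, which promotes the degradation of STAT proteins, rose by 0.52 (limma adjusted p = 0.0110). None of the 21 passed in RNA or TE (limma).

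Of 26 STAT target genes, 22 were measured, of which Bcl6, a transcriptional repressor, rose in RNA by 0.52 (1.83 to 2.66 RPKM, limma adjusted p = 0.0556) and Myc, a growth-promoting transcription factor, fell in footprints by 0.40 (139.6 ± 17.9 to 106.1 ± 18.6 RPKM, limma adjusted p = 0.0593). Each was the 1 of 22 to pass in its measure, where 3.55% of all genes passed in RNA and 10.0% in footprints. Ccnd1, with 295.2 RPKM of RNA in controls, did not pass in any fit. Of 28 interferon-stimulated genes 15 were measured and none passed in RNA, footprints or TE (limma), with median changes of 0.068, 0.11 and -0.015. Likewise none of the 11 measured adaptors and cofactors passed in these fits. Jak3 was nearly without signal (1.77 RPKM of RNA in controls).

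In relative 5′ UTR translation 11 of the 50 pathway genes with coverage passed, all upward, against 17.9% of all genes. They included Socs3, Ptpn11 and Pdlim2 among the inhibitors, Birc5, Hif1a, Pim3 and Ccnd3 among the STAT targets, Gab1 and Nmi among the adaptors and cofactors, and Ifitm3 among the interferon-stimulated genes, with Nmi changing by 0.66 (standard error 0.20, limma adjusted p = 0.0649). Without Denr shRNA1 replicate 1 the number fell to 5, all among these 11, while 11.2% of all genes passed. In the same fit 5 of 91 pathway genes passed in RNA rather than 2 (4.9% of all genes), 7 in footprints as before, 6 of them the same (8.12% of all genes), and 0 in TE rather than 1 (0.685% of all genes).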

How the data were processed

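NIH3T3 cells with Denr, scramble or Gfp shRNA were analysed as RPF-seq and RNA-seq libraries of 11 lysates. The deposited values are RPKM of the CDS and 5′ UTR per gene. Per the methods, the authors trimmed reads with cutadapt, aligned them with Bowtie2 2.2.1 and TopHat2 2.0.11 (GRCm38.p2, mm10), chose expressed isoforms with Cufflinks 2.2.1, counted footprints by their A-site and RNA reads by their 5′ end, gave ambiguous reads to the CDS first, removed genes with few reads, and applied edgeR's upper-quartile normalisation to each assay separately. The strand setting of the counting was not given in the sources used here.

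Whole reads were recovered from the RPKM steps (all 231352 CDS values, tolerance 1e-04) and used for depth and coverage. The recovered CDS length equalled the annotated one in 93.3% of 2712 single-transcript genes, and the 5′ UTR length, on which the coverage filter rests, in 80.6% of 2562. Values were compared as log2(RPKM + 0.1), so that changes of low genes are understated, with limma (lmFit, eBayes with trend) over all genes, Benjamini-Hochberg adjustment and an FDR of 0.1. The 2 Denr shRNAs were compared in a fit of all 4 shRNA groups. Both shRNAs share the control lysates. uORFs came from GENCODE vM21 (GRCm38), and names from its annotation and a gene table (10505 of 10516 identifiers matched). The members and gene lists were chosen with earlier results of these data known. The text names each member and Denr, of each pathway list the genes that passed (up to the 4 with the largest change per fit) and up to 2 with the highest control RNA, and 5 genes most like Jak2 in TE. A few results of these lists are not reported here.

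Alternatives used other pseudocounts (0.01, 1), only genes averaging 1 or more CDS RPKM, median centring, eBayes without trend, an interaction term, each Denr shRNA alone, scramble shRNA alone, a replicate block, voom on recovered reads, other coverage filters, other denominators of the 5′ UTR, other transcripts and each lysate left out. Leaving out replicate 1 of Denr shRNA1 and Gfp shRNA, with or without that of Denr shRNA2, and the transcript of matching length, were chosen after seeing the data. Software: Python 3.11.15, numpy 2.4.6, pandas 2.3.3, matplotlib 3.10.9, Biopython 1.88, limma 3.58.1 under R 4.3.3.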

Additional observations from a re-analysis of the deposited data

Results flagged for a closer look

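Of 58 sets of values of 1 member in the knockdown or the control lysates, 8 held a lysate that lay apart from the others by Dixon's criterion, which chance alone meets in about 1 of 20. Denr shRNA1 replicate 1 accounted for 4 of them, the RNA and TE of Jak2 and of Stat6. TE is computed from the RNA value of the same lysate, so these flags are not independent of each other. It had the lowest Jak2 RNA of the knockdown lysates (26.3 RPKM, the others 45.8 to 52.4), the highest Jak2 log2 TE (-2.35, the others -3.59 to -3.14), the highest Stat6 RNA (72.4 RPKM, the others 58.3 to 60.1) and the lowest Stat6 log2 TE (-0.65, the others -0.41 to -0.26). Jak2 and Stat6 RNA therefore deviated in opposite directions in this library.

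The other 4 lay in different lysates. Stat5a footprints were 10.3 RPKM in Gfp shRNA replicate 1 (other controls 8.42 to 8.89), and Stat5b footprints were 13.4 RPKM in scramble shRNA replicate 2 (other controls 15.1 to 15.7). The log2 TE of Stat5b was -0.45 in Denr shRNA1 replicate 2 (other knockdown lysates -0.67 to -0.61), and that of Stat6 was -0.36 in scramble shRNA replicate 1 (other controls -0.28 to -0.27).

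CDS footprints of 2 of 8 members differed between the Denr shRNAs in a test of that difference, which 9.69% of all genes passed, Stat2 by -0.41 (adjusted p = 0.0662 from limma's test, shRNA2 minus shRNA1) and Tyk2 by 0.49 (adjusted p = 0.0517 from limma's test). Each passed in 6 of 11 fits with a lysate left out. Their RNA differed in the same directions without passing, by -0.19 for Stat2 and 0.22 for Tyk2.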

How the results depend on the processing

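Of 1228 values of single members under the alternatives, 1150 kept their direction and side of the threshold. Few of the 58 results behind them had passed with all lysates, so most had no call to lose. Of the other values, 36 changed sign, 14 passed where the result had not, and 28 lost a call. Counts of genes past the threshold moved as well. With scramble shRNA alone as control, 940 genes passed in RNA, 2651 in footprints, 10 in TE and 512 in relative 5′ UTR translation, against 373, 1053, 50 and 931 with all lysates. With Denr shRNA1 alone 159 passed in RNA, 1 in TE and 5 in relative 5′ UTR translation, and with Denr shRNA2 alone 9 in the last. Relative 5′ UTR translation gave 131 genes with a 5′ UTR RPKM filter, 112 without a coverage filter and 4 over 5′ UTR RNA. Without replicate 1 of both Denr shRNA1 and Gfp shRNA, 975 passed in RNA and 31 in relative 5′ UTR translation, and without that of Denr shRNA2 as well 386 in footprints, 21 in TE and 18 in relative 5′ UTR translation. Leaving out 1 lysate gave 139 to 734 genes in RNA, 484 to 1946 in footprints, 14 to 72 in TE and 38 to 1774 in relative 5′ UTR translation, and between the Denr shRNAs 61 to 267 in RNA, 560 to 1236 in footprints and 0 to 1 in TE. Voom on recovered whole reads called 389 genes in RNA, 1152 in footprints, 36 in TE and 1172 in relative 5′ UTR translation. The cause of these shifts was not tested.

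Replicate numbers were not taken as pairs in the main fits, because the labels name no shared batch and not every same-numbered pair of lysates correlated above 0.1. Such pairs did so in 10 of 15 for RNA, 13 for footprints and 10 for TE (mean r 0.33, 0.18 and 0.23), and differently numbered pairs in 5, 4 and 4 of 30 (mean r -0.16, -0.089 and -0.11). Values were first centred on the mean of their shRNA. This alone turns the mean of differently numbered pairs negative when that of same-numbered pairs is positive, so the negative means are no independent reference. Most same-numbered pairs thus did correlate, and replicate 1 of every shRNA had the length pattern described above. The main fits leave any such shared difference in the spread, and whether it came from a batch was not tested. With the replicate block 1003 genes passed in RNA, 1940 in footprints and 2419 in relative 5′ UTR translation, and 965 in RNA and 1812 in footprints between the Denr shRNAs. Among members the block added Stat6 footprints (-0.14, limma adjusted p = 0.05995) and the relative 5′ UTR translation of Stat5b (0.71, adjusted p = 0.0310), Stat3 (0.55, adjusted p = 0.0598) and Stat6 (0.31, adjusted p = 0.0887).

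Signs turned only for small changes that had not passed. Stat5b RNA became -0.022 with median centring, -0.0062 with the block, -0.046 with Denr shRNA2 alone and -0.0019 with voom. With Denr shRNA2 alone the footprints of Stat2 became -0.0085 and of Stat5a -0.033. With Denr shRNA1 alone footprints of Stat5b became 0.0065 and of Tyk2 -0.15, the TE of Stat2 0.041, and the 5′ UTR-to-CDS RNA ratio of Stat3 -0.013 and of Jak1 0.097. That ratio became 0.0091 for Jak1 with voom, 0.050 for Jak1 without replicate 1 of Denr shRNA1, Denr shRNA2 and Gfp shRNA, and 0.0020 for Stat6 with scramble shRNA alone. Leaving out 1 lysate gave ranges of -0.027 to 0.030 for Stat5b RNA, -0.14 to 0.015 for Stat2 TE, -0.00081 to 0.29 for the Jak2 and -0.063 to 0.047 for the Jak1 RNA ratio. Between the Denr shRNAs such ranges were -0.10 to 0.0079 for Stat5b, -0.14 to 0.041 for Stat5a, -0.032 to 0.075 for Stat3 and -0.055 to 0.13 for Stat6 TE, -0.14 to 0.015 for Stat6 RNA, and -0.049 to 0.0052 for Stat6 and -0.075 to 0.019 for Jak1 footprints.

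Jak2's relative 5′ UTR translation, at 0.72 with adjusted p = 0.127 under the 5′ UTR RPKM filter and 0.160 without a coverage filter (limma), did not pass with Denr shRNA1 alone (0.69) or shRNA2 alone (0.74). Depth limits the CDS values of Tyk2 (72 to 131 footprints per library), Stat2 (107 to 279) and Jak2 (148 to 415).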
